A study of Mus musculus with 23 samples.

Results

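The genes described here are 10 mouse genes of antigen presentation by MHC class I and of immune checkpoint signalling: B2m, Tap1, Tap2, Tapbp, Erap1, Psmb8, Psmb9, Psmb10, Cd274 and Nlrc5. They were taken by name, and each was represented by its probe set with the highest mean intensity over all 23 arrays. All 10 were measured, of 18193 genes tested in all. All 10 also had an overall mean above the level of 5.32 that served as a filter on low values in an alternative. That level, an intensity of 24, lay below every array median (40.83 to 45.74), so passing it does not show expression. Levels are given as log2(intensity + 16), and folds taken from them understate the changes of dim probe sets. The cells were 8 subclones, numbered 2, 3, 6, 18, 19, 23, 24 and 28, of Lewis lung carcinoma (LLC), a transplantable tumour cell line. Each subclone was obtained by limiting dilution of the parental line, grown in DMEM with 10% serum and antibiotics, and kept for 24 h in a serum-free expression medium before total RNA was extracted. There were 2 arrays for subclone 6 and 3 for each of the others, called biological replicates in the labels. No parental culture and no interferon-treated sample were analysed here, each subclone is a single derived line, and what a replicate consisted of is not stated, so p-values measure the spread between these arrays.

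Cells display peptides of their own proteins on MHC class I molecules, which consist of a heavy chain and beta-2 microglobulin. Proteasomes cut the proteins, the TAP transporter carries the peptides into the endoplasmic reticulum, ERAP1 trims them, and tapasin bridges TAP to the waiting heavy chain. Interferon gamma induces most of these genes, and the immunoproteasome subunits replace their constitutive counterparts after such a stimulus. LLC is known as a poorly immunogenic tumour with low surface MHC class I that interferon gamma can raise.

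Upstream sequences are shown for 4 genes whose windows held a match to a motif searched: B2m, Psmb8, and Tap1 and Psmb9, which share an upstream region. In subclone 24, B2m and Tap1 were lowest, Psmb8 was highest and Psmb9 lay in between. Psmb10, Erap1 and Tapbp were also highest there, but their windows held no match and are not shown. RefSeq (GRCm38.p6) windows were matched for 8 of the 10 members. The 250 bases before each annotated start were searched on both strands, except for Tap1 and Psmb9. For these, only the 225 bases between their starts were searched, on both strands. The motifs were the interferon-stimulated response element (GAAA, any 2 bases, GAAA), the gamma-activated site TTCNNNGAA, an X2-like box TGACGNNA and the kappaB site. Capitals mark the matches.
B2m, chr2:122147437-122147686, + strand: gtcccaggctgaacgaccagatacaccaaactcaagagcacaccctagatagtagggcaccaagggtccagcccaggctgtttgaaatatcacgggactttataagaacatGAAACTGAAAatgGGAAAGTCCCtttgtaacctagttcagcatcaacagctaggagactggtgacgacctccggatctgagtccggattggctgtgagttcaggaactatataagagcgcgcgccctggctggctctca
Between the starts of Psmb9 and Tap1, read towards Tap1, chr17:34187331-34187555, + strand: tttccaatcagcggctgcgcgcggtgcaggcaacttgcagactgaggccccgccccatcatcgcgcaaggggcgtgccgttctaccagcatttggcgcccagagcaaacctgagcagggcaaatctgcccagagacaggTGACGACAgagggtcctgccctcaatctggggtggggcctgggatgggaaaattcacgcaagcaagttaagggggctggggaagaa
Psmb8, chr17:34197945-34198194, + strand: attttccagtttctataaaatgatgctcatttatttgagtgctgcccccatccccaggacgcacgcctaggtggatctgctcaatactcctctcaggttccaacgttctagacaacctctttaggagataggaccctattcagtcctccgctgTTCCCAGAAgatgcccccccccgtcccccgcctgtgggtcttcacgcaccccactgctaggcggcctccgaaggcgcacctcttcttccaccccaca
The B2m window held an interferon-stimulated response element, in 2.98% of all 32851 windows, 139 to 130 bases before the start, and a kappaB site, in 3.90%, 126 to 117 bases before it on the other strand. These 2 matches do not overlap. The 225 bases between Tap1 and Psmb9 held 1 X2-like box, in 5.66% of all windows of 250 bases. The Psmb8 window held 1 gamma-activated site, in 7.02%. That pattern is its own reverse complement, so the match counts on both strands. No motif searched was found in the windows of Tapbp, Erap1, Psmb10 and Cd274. A match is a string of letters and not a shown binding site.

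The 10 genes differed between subclones, with different subclones at their extremes. All 10 passed the moderated F-test for equal subclone means (limma, Benjamini-Hochberg adjusted p under 0.05 over all genes), as did 61.8% of all genes tested. In 4 of them, Erap1, Nlrc5, Psmb10 and Tap2, the means spanned at least 1 log2 unit, against 12.7% of all genes. Erap1 spanned 2.12 log2 units (4.36-fold), Nlrc5 1.82 (3.52-fold), Psmb10 1.77 (3.41-fold) and Tap2 1.04 (2.05-fold). The other ranges were 0.94 for Psmb8, 0.90 for Tapbp, 0.88 for Cd274, 0.56 for Psmb9, 0.56 for Tap1 and 0.37 for B2m, and the median over all genes was 0.49. Over the 28 pairs of subclones, Erap1 and Nlrc5 each differed by at least 1 log2 unit with an adjusted p under 0.05 in 7 pairs, Psmb10 in 6 and Tap2 in 1, against 2.44% of all gene and pair combinations. The other 6 members made no such call. Most of the extreme means were held by subclones 24, 28 and 19, as the plot of every array shows. Subclone 28 held only the lowest means of Erap1 and Psmb10. Subclone 3 held the highest of Tap1 and the lowest of Tap2, and subclone 18 the lowest of Tapbp and Cd274. In subclones 24, 28 and 19 the median difference of the 10 members from the mean of the other subclones was 0.07, -0.08 and 0.17. Over all genes it was -0.01, 0.00 and 0.01 log2 units. Subclone 23 had a median of 0.12, against -0.01 over all genes. In subclones 2, 3, 6 and 18 it was 0.03, -0.05, -0.04 and -0.02, against -0.01, 0.01, 0.02 and 0.01.

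**Figure D1:**
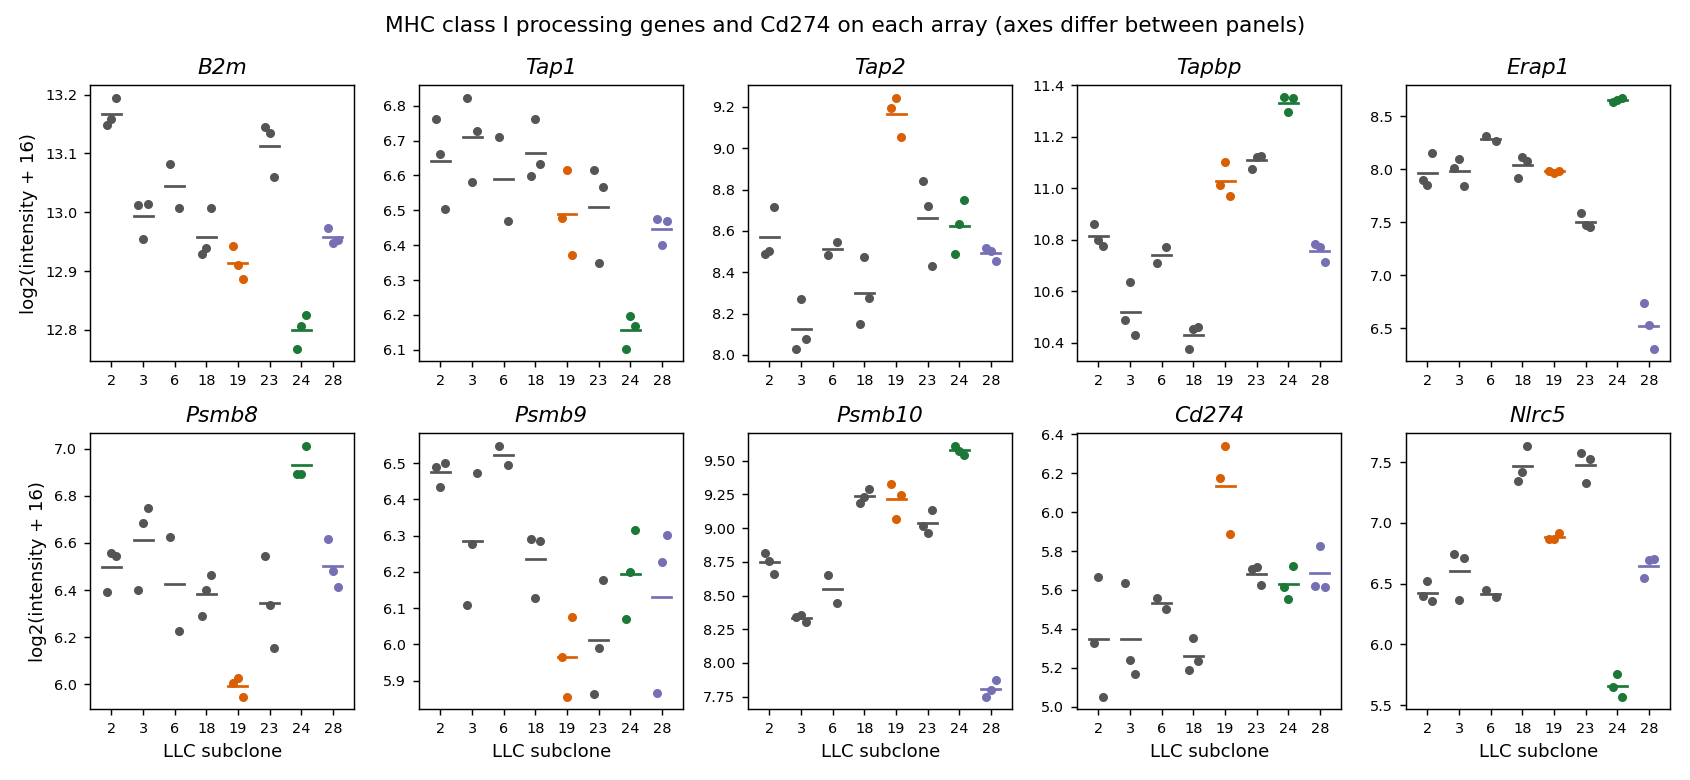
Level of each member, log2(intensity + 16), on every array (points) with the mean of each subclone (lines); subclones 19, 24 and 28 are coloured and the vertical axes differ. In subclone 24, Tapbp, Erap1, Psmb8 and Psmb10 lay above every other array and B2m, Tap1 and Nlrc5 below every other array.

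In subclone 24, 4 members lay above and 3 below every array of the other 7 subclones. Over all genes, 1.68% lay above and 2.66% below all other arrays in this subclone. Psmb10, which encodes the immunoproteasome subunit MECL-1, was at 9.61, 9.57 and 9.55 in subclone 24, against 7.75 to 9.33 (median 8.79) on the other 20 arrays. Erap1, the trimming peptidase of the endoplasmic reticulum, was at 8.63, 8.65 and 8.67 in subclone 24, against 6.31 to 8.31 (median 7.94) elsewhere. Tapbp, which encodes tapasin, was at 11.35, 11.30 and 11.35, against 10.38 to 11.13 (median 10.77). None of these groups overlapped. Psmb8, which encodes the chymotrypsin-like immunoproteasome subunit LMP7, was at 6.89, 6.89 and 7.01 in subclone 24, against 5.95 to 6.75 (median 6.41) on the other arrays. Relative to the average of the remaining 7 subclones, the differences were 0.87 ± 0.051 (SE) log2 units for Psmb10, 0.90 ± 0.072 for Erap1, 0.56 ± 0.038 for Tapbp and 0.54 ± 0.083 for Psmb8. Their limma adjusted p-values were 2.36e-10, 1.4e-08, 1.72e-09 and 4.37e-05, and each was under the 2-fold bar used for calls. Every subclone is part of the average used for the others, so the contrasts depend on each other. Expressed genes of chromosome 8, which carries Psmb10, had a median difference of -0.01 in subclone 24, and those of chromosome 13, which carries Erap1, 0.09.

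Nlrc5, the transactivator of MHC class I genes, took the opposite position. It was at 5.65, 5.76 and 5.57 in subclone 24, against 6.36 to 7.64 (median 6.73) on the other 20 arrays, without overlap. It fell 2.28-fold (-1.19 ± 0.073 SE, adjusted p = 3.85e-10), the only member called at 2-fold in this subclone, where 0.709% of all genes were called lower. With a pseudocount of 64 the difference was -0.74 and no longer reached 2-fold. The signal was dim in subclone 24, with intensities of 34.2, 38.1 and 31.5 against 66.1 or more on the other arrays. Tap1, a chain of the peptide transporter, was at 6.10, 6.20 and 6.17 in subclone 24, against 6.35 to 6.82 (median 6.59), a fall of 1.34-fold (-0.42 ± 0.067, adjusted p = 6.27e-05). B2m, the light chain of every class I molecule, was at 12.77, 12.81 and 12.83, against 12.89 to 13.20 (median 13.01), a fall of 1.17-fold (-0.22 ± 0.028, adjusted p = 5.34e-06). The fall of B2m was small but exceeded the spread between replicates, which was 0.035 log2 units (residual SD). With Tap1 as the mean of its 4 probe sets, its difference in subclone 24 was -0.12 (adjusted p = 0.0935). The other 3 Tap1 probe sets had mean intensities of 8.63 to 15.1, against 76.8 for the one used, and none passed the F-test.

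The heavy chain genes H2-K1 and H2-D1 were lower in subclone 24 as well. H2-K1 had 4 probe sets and H2-D1 had 9. The probe set used for each was of the _x_at kind, whose probes can match several transcripts. Here and below, the 2 genes may therefore not be separate readings, and their other probe sets are not given. H2-K1 averaged 11.60 ± 0.074 (SD, n = 3) there and 11.90 over the means of the other 7 (-0.29 ± 0.043 SE, adjusted p = 2.66e-05 by limma). H2-D1 averaged 11.91 ± 0.043 (SD, n = 3) in subclone 24 and 12.18 in the others (-0.26 ± 0.033 SE, adjusted p = 4.35e-06 by limma). Subclone 18 had like means, with H2-K1 at 11.62 ± 0.075 and H2-D1 at 11.91 ± 0.035 (SD, n = 3), while its Nlrc5 level of 7.47 was close to the highest. Subclone 28 was next lowest, with H2-K1 at 11.72 ± 0.045 and H2-D1 at 11.99 ± 0.021 (SD, n = 3). Its Nlrc5 and B2m levels were 6.65 and 12.96, between the extremes. Irf1, an interferon-induced transcription factor, was highest in subclone 24 at 10.40 ± 0.051 (SD, n = 3) against 9.73 in the others (0.67 ± 0.051 SE, adjusted p = 8.43e-09 by limma). The Irf1 arrays of subclone 24 (10.35 or more) overlapped with those of subclone 19 (up to 10.36). Tapbpl, a relative of tapasin (0.64 ± 0.067), and Psme1, a subunit of the proteasome activator PA28 (0.31 ± 0.038), were above all other arrays in subclone 24. The interferon gamma receptor gene Ifngr2 lay below all other arrays (-0.67 ± 0.071, adjusted p = 5.35e-07).

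**Figure D2:**
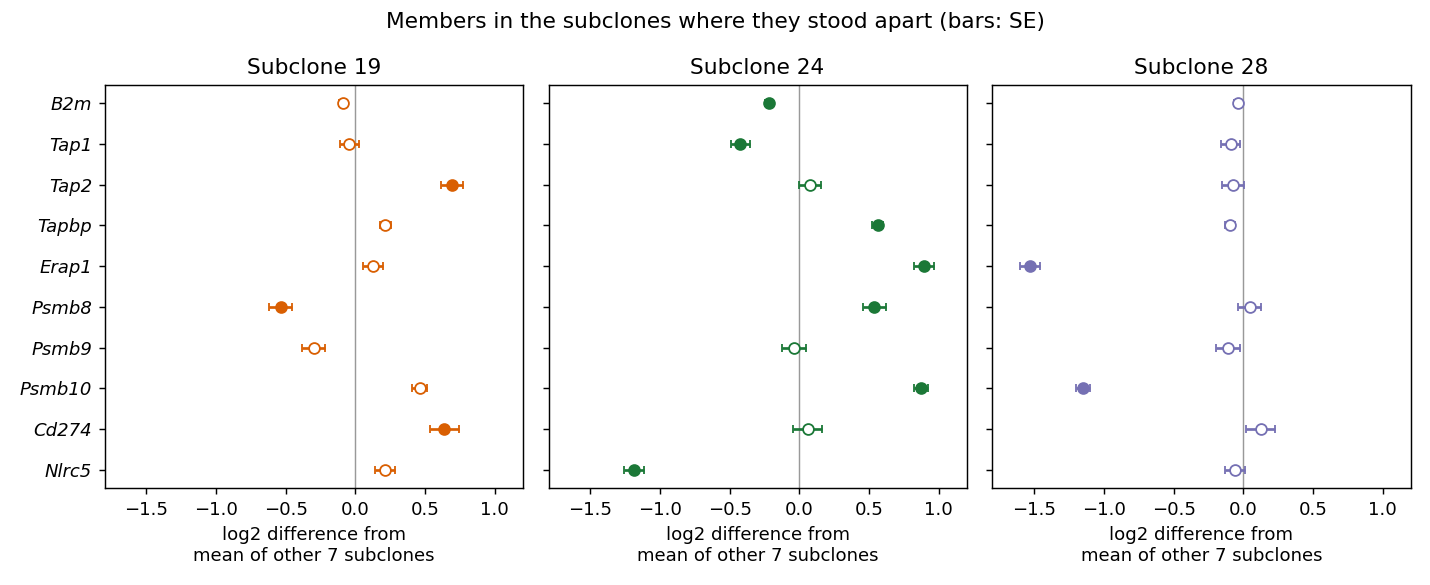
Log2 difference of each member in subclones 19, 24 and 28 from the mean of the other 7 subclones (points) with its SE (bars); filled points mark members whose arrays did not overlap with any other array. Subclone 24 held 7 filled points, 4 to the right of 0 and 3 to the left, subclone 19 held 3 and subclone 28 held 2.

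In subclone 28, Erap1 and Psmb10 were low and no other member passed the test. Erap1 was at 6.74, 6.53 and 6.31 in subclone 28, against 7.45 to 8.67 (median 8.0) on the other 20 arrays. Its signal was dim in subclone 28, with intensities of 91.21, 76.49 and 63.25, against 159.23 or more elsewhere. Psmb10 was at 7.75, 7.80 and 7.87, against 8.30 to 9.61 (median 9.04). Neither gene's arrays overlapped with the others, whereas 3.59% of all genes lay below every other array in subclone 28. Erap1 fell 2.89-fold (-1.53 ± 0.072 SE, adjusted p = 7.59e-12) and Psmb10 fell 2.22-fold (-1.15 ± 0.051 SE, adjusted p = 4.05e-12). Both passed the 2-fold bar, as did 0.352% of all genes in this direction. Over all 8 contrasts, these 2 and Nlrc5 in subclone 24 were the 3 calls made among 80 member and subclone combinations, against 1.33% of all combinations. Between the extremes, subclone 24 exceeded subclone 28 by 2.12 ± 0.094 (SE) for Erap1 and 1.77 ± 0.068 for Psmb10. Psmb10 lies on chromosome 8 and Erap1 on chromosome 13. In subclone 28, the median difference of 665 expressed genes of chromosome 8 was -0.25 and that of 464 genes of chromosome 13 was -0.15, and the part of these shifts in the 2 results was not tested. Nlrc5, also on chromosome 8, had a difference of -0.06 in subclone 28.

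Irf1 was low in subclone 28 too, at 9.30 ± 0.012 (SD, n = 3) against 9.89 in the others (-0.59 ± 0.051 SE, adjusted p = 3.43e-08 by limma), and only subclone 3 had a lower mean (8.97). Ifngr2 was highest in subclone 28 (0.77 ± 0.071, adjusted p = 6.84e-08). Tapbpl (-0.42 ± 0.067) and Psme1 (-0.13 ± 0.038) were lower, and Psmb5 and Psmb6, which encode constitutive catalytic subunits, differed by -0.08 ± 0.034 and -0.01 ± 0.031 and did not pass the test. Psmb7, the constitutive counterpart of Psmb10, was lower by a smaller amount (-0.21 ± 0.044, adjusted p = 0.000897).

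In subclone 19, Tap2 and Cd274 were highest and Psmb8 lowest. Tap2, the other chain of the peptide transporter, was at 9.19, 9.25 and 9.05 in subclone 19, against 8.03 to 8.84 (median 8.49) on the other 20 arrays, 1.62-fold higher (0.69 ± 0.079 SE, adjusted p = 8.23e-07). Cd274, which encodes the checkpoint ligand PD-L1, was at 6.18, 6.34 and 5.89, against 5.05 to 5.83 (median 5.59), 1.56-fold higher (0.64 ± 0.11 SE, adjusted p = 6.39e-05). Psmb8 was at 6.0, 6.03 and 5.95 in subclone 19, against 6.15 to 7.01 (median 6.51), 1.45-fold lower (-0.54 ± 0.083 SE, adjusted p = 2.87e-05). None of these 3 groups overlapped, whereas 5.45% of all genes lay above and 3.22% below every other array in this subclone. Among the members whose arrays overlapped with others, Psmb10 (0.46 ± 0.051), Tapbp (0.21 ± 0.038) and Nlrc5 (0.21 ± 0.073) were higher and Psmb9 (-0.30 ± 0.084) and B2m (-0.09 ± 0.028) lower. The immunoproteasome subunit genes differed in direction within this subclone, Psmb10 being higher and Psmb8 and Psmb9 lower than the mean of the others. Psmb8 and Psmb9 were dim there, with intensities of 45.65 to 49.17 and 41.88 to 51.42, near the array medians of 40.83 to 45.74. Psmb10 was at 521.74 to 627.87. The lower values of Psmb8 and Psmb9 are therefore limited by the background.

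The Cd274 signal was dim. Its intensities were 56.3, 65.2 and 43.3 in subclone 19, against 17.1 to 40.7 on the other arrays, and the filter on low values tried as an alternative was set at an intensity of 24. Only 1 probe set carried the gene. Apart from subclone 19, no neighbours in its order of means passed the test, from 5.69 in subclone 28 down to 5.26 in subclone 18. Subclone 18 was nevertheless below subclones 28, 23 and 24, which are not its neighbours (limma adjusted p = 0.0173, 0.0218 and 0.0453). In subclone 18, where 431 expressed genes of chromosome 19 had a median difference of -0.27, Cd274, which lies on that chromosome, had a difference of -0.37 ± 0.11 (adjusted p = 0.00839); the part of that shift was not tested. Pdcd1lg2, the gene for the related ligand PD-L2, did not pass the F-test (adjusted p = 0.0737), with means between 5.55 and 6.0.

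Gbp2 and Gbp7, guanylate-binding protein genes that interferon gamma induces, were highest in subclone 19. Gbp2 was at 8.77 in subclone 19, against 6.60 in the others (2.17 ± 0.077 SE), and Gbp7 at 8.56, against 6.27 (2.29 ± 0.082). Irf1 was higher there as well (0.55 ± 0.051). H2-K1 and H2-D1 had their highest means in this subclone, at 12.13 and 12.41, with differences of 0.32 ± 0.043 and 0.30 ± 0.033. Lyz2 and Cd68, which are abundant in macrophages, were at 7.99 and 8.66 in subclone 19, against means of 5.73 to 7.32 and 6.14 to 8.94 in the other subclones. They were the only 2 of the 15 leukocyte markers measured that passed the F-test, and the macrophage markers Adgre1 (-0.07), Itgam (-0.13), Tyrobp (-0.07) and Csf1r (0.06) had differences in subclone 19 that did not pass the test. The leukocyte gene Ptprc was at 4.54 there, below the filter level of 5.32, as in every other subclone (4.32 to 4.70). Summed over all 15, arrays of subclone 19 lay between 81.2 and 82.1 log2 units, those of subclone 24 between 76.3 and 77.8 and those of subclone 28 between 79.7 and 81.9; Lyz2 and Cd68 alone had differences of 1.69 and 1.25 in subclone 19. The lowest and highest sums on any array were 76.3 and 82.1, 10 of the 15 markers had overall means below the filter level, and the part of these markers in the results was not tested. In a bulk RNA sample, fewer cells of a kind and less RNA per cell cannot be told apart.

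Subclones 2, 3, 6, 18 and 23 held intermediate positions for most members. B2m was highest in subclone 2, at 13.15, 13.16 and 13.20 against 12.77 to 13.14 on the other arrays (0.20 ± 0.028 SE, adjusted p = 1.59e-05), and 1.99% of all genes lay above every other array in that subclone. After quantile normalization or median centring, or with the mean of its probe sets, B2m overlapped between subclone 2 and the rest. The second B2m probe set had its highest mean in subclone 23. Expressed genes of chromosome 2, which carries B2m, had a median difference of 0.13 in subclone 2, and its part was not tested. Nlrc5 was high in subclones 23 (7.58, 7.33 and 7.52) and 18 (7.34, 7.42 and 7.64), whose difference of 0.01 did not pass the test (adjusted p = 0.96) and which stood above subclone 19 at 6.88, the next in order (difference 0.58 between subclones 18 and 19, adjusted p = 6.47e-05). Against the mean of the others, the Nlrc5 differences were 0.89 ± 0.073 (SE) in subclone 23 and 0.88 ± 0.073 in subclone 18. Expressed genes of chromosome 8, which carries Nlrc5, had a median difference of 0.23 in subclone 23 and 0.01 in subclone 18. Tapbp was lowest in subclone 18 (10.38, 10.45 and 10.46) and next lowest in subclone 3 (10.49, 10.64 and 10.43), which overlapped. Tap2 was lowest in subclone 3, at 8.03, 8.27 and 8.08, and its difference from subclone 18 at 8.15, 8.48 and 8.28 did not pass the test (adjusted p = 0.205).

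With no minimum difference, by an adjusted p under 0.05 only, members passed in both directions in each of these 5 subclones. In subclone 2, 2 were higher (B2m and Psmb9) and 1 lower (Nlrc5), against 15.4% and 20.6% of all genes. In subclone 3, 1 was higher (Tap1) and 3 lower (Psmb10, Tap2 and Tapbp), against 19.4% and 18.6%. In subclone 6, 2 were higher (Erap1 and Psmb9) and 2 lower (Nlrc5 and Psmb10), against 13.8% and 10.2%. In subclone 18, 3 were higher (Erap1, Nlrc5 and Psmb10) and 3 lower (Cd274, Tap2 and Tapbp), against 21.5% and 21.6%. In subclone 23, 4 were higher (B2m, Nlrc5, Psmb10 and Tapbp) and 2 lower (Erap1 and Psmb9), against 20.3% and 17.4%. By the same rule, 5 members were higher and 3 lower in subclone 19, against 24.2% and 17.7% of all genes, 4 were higher and 3 lower in subclone 24, against 15.2% and 17.1%, and 0 were higher and 2 lower in subclone 28, against 19.2% and 18.2%. No member lay beyond every other array in subclones 3, 6, 18 and 23, where 3.3%, 1.37%, 5.01% and 3.46% of all genes lay above and 2.75%, 0.555%, 6.29% and 2.91% below. None lay below every other array in subclone 2 (3.22% of all genes) or above every other array in subclone 28 (3.95%). With the mean of its probe sets, however, Tapbp lay below every other array in subclone 18.

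The order of the levels was resolved best for Psmb10. Of its 7 neighbouring pairs, 4 differed: subclone 24 (9.58) exceeded subclone 18 (9.24), subclone 19 (9.22) exceeded subclone 23 (9.04), subclone 23 exceeded subclone 2 (8.75), and subclone 3 (8.33) exceeded subclone 28 (7.81). The step between subclones 19 and 23 was marginal (adjusted p = 0.0497). For Erap1, the step from subclone 24 (8.65) to subclone 6 (8.29), that from subclone 2 (7.97) to subclone 23 (7.51) and that from subclone 23 to subclone 28 (6.53) passed the test. No neighbours passed among subclones 6, 18, 3, 19 and 2, but subclone 6 exceeded subclones 19 (8.29 against 7.98, adjusted p = 0.0293) and 2 (8.29 against 7.97, adjusted p = 0.0357), which are not its neighbours. Tapbp had 3 such steps, Nlrc5 and Psmb8 2 each, and B2m, Tap1, Tap2 and Cd274 1 each. Psmb9, which encodes the immunoproteasome subunit LMP2, had none. It passed the F-test (adjusted p = 0.00274), with means between 6.52 in subclone 6 and 5.96 in subclone 19, but its order between neighbours is not resolved by 2 or 3 arrays.

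Of the members on chromosome 17, Tap1 and Psmb9, which are transcribed in opposite directions from the sequence shown above, had a Pearson r of 0.38 over the 8 subclone means. For Tap1 and Tap2 the value was -0.43, for Psmb8 and Psmb9 0.37, and for Tap1 and Tapbp, -0.84. The highest values among the members were 0.89 for Tap2 and Cd274, 0.72 for Erap1 and Psmb10, 0.67 for Tap2 and Tapbp and 0.66 for B2m and Tap1. Nlrc5 had values of 0.56 with Tap1, 0.40 with B2m, 0.28 with H2-K1, 0.24 with H2-D1 and -0.68 with Psmb8. Irf1 had 0.90 with Psmb10 and 0.07 with Nlrc5. These values describe 8 points whose means come from the same arrays. Expressed genes of chromosome 17 had median differences between -0.06 and 0.06 in all 8 subclones.

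**Figure D3:**
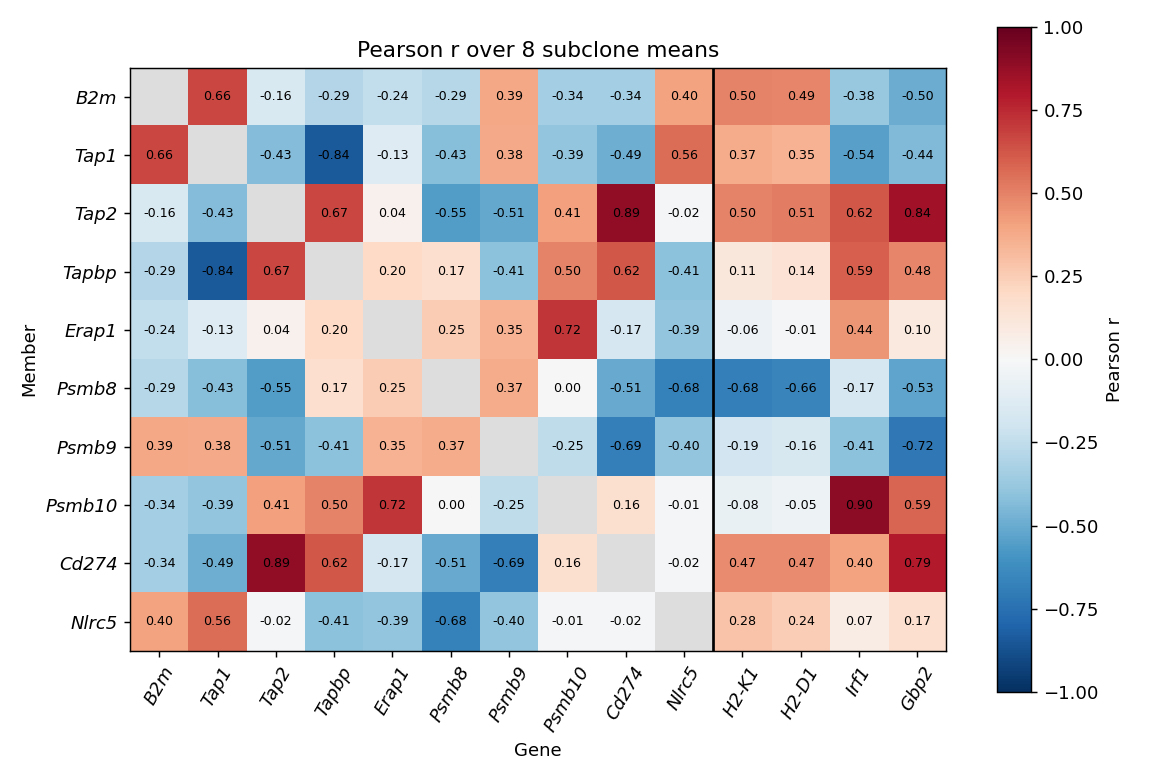
Pearson correlation over the 8 subclone means between the members (rows) and the members, H2-K1, H2-D1, Irf1 and Gbp2 (columns); grey cells are a gene with itself. Tap2 with Cd274 (0.89) and Psmb10 with Irf1 (0.90) were among the highest values and Tap1 with Tapbp (-0.84) was the lowest.

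The search for like patterns covered 2311 other genes that passed the F-test and spanned 1 log2 unit or more. Over 8 means, the best of so many genes can reach high values by selection alone. The 3 highest per member are given as a description, without a test. Those most like Psmb10 over the 8 subclone means were Srsf6 (r = 0.96), Il17rc (0.95) and Dido1 (0.94). Those most like Nlrc5 were Ltc4s (0.97), Rras2 (0.94) and Mfhas1 (0.94). For Erap1 they were 2900026A02Rik (0.93), Lrrc17 (0.92) and Nudt19 (0.92), and for Tap2 Rbks (0.95), Gm20045 (0.95) and Cpeb3 (0.94).

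The other genes of the pathway were counted from lists, whose counts stand beside 61.8% of all genes past the F-test and 12.7% past it with a range of at least 1. Of 11 measured class I heavy chain and related genes, 7 passed the F-test. The classical genes H2-K1 and H2-D1 spanned 0.53 and 0.50 log2 units, and H2-M3, a nonclassical gene of the same region, 0.77. Ranges of at least 1 were found in Cd1d1, which presents lipids (2.56, highest in subclone 19), Fcgrt, the neonatal Fc receptor (2.03, lowest in subclone 19), Mr1 (1.23) and Hfe (1.21). In subclone 24, 2 of the 11 were higher and 5 lower by adjusted p, in subclone 19, 5 were higher and 2 lower, and in subclone 28, 3 were higher and 4 lower; the shares of all genes are those given above for the members.

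Of 13 measured genes of peptide loading and trimming, 13 passed the F-test, but their median range was 0.42, and only Thop1, a cytosolic peptidase, spanned 1 log2 unit (1.04). In subclone 19, 10 of them were higher and 1 lower, with the chaperone genes Calr at 0.24 ± 0.032 and Canx at 0.12 ± 0.036, while Pdia3, which encodes ERp57, did not pass (-0.08 ± 0.034). In subclone 24, 4 were higher and 2 lower, and in subclone 28, 4 were higher and 1 lower. Of 21 other proteasome genes, 19 passed the F-test, none with a range of 1, and their median range was 0.36. None of the 13 and 1 of the 21 had an overall mean below the filter level, while the share over all genes covers genes of every level. Psmb5 and Psmb6 spanned 0.19 and 0.17 log2 units and Psmb7 0.59. In subclones 19, 24 and 28, 6, 3 and 1 of these genes were higher and 5, 6 and 9 lower. For both lists, the shares of all genes were 24.2% higher and 17.7% lower in subclone 19. They were 15.2% and 17.1% in subclone 24, and 19.2% and 18.2% in subclone 28.

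Of 29 regulators and interferon gamma signalling genes, 26 passed the F-test (89.7%). By adjusted p, 7 were higher and 6 lower in subclone 19, against 24.2% and 17.7% of all genes. In subclone 24, 9 were higher and 8 lower, against 15.2% and 17.1%. In subclone 28, 8 were higher and 10 lower, against 19.2% and 18.2%. The directions of Irf1 are thus not those of the list as a whole. Irf1 (1.43), Ifngr2 (1.26), Rfxank (1.22), a subunit of the RFX complex that binds MHC promoters, and Ifngr1 (1.10) had ranges of at least 1. Rfxank was highest in subclone 6 (7.63) and lowest in subclone 18 (6.41). Irf2 ranged over 0.32, from 9.61 in subclone 23 to 9.29 in subclone 6. Of 31 guanylate-binding and interferon-stimulated genes, 24 passed (77.4%), 12 of them with a range of at least 1. Gbp7 (3.21), Gbp2 (3.02), Gbp8 (2.78), Gbp3 (2.47), Parp14 (1.64) and Irgm1 (1.63) had the widest ranges, the first 5 with their highest mean in subclone 19 and Irgm1 in subclone 18. In subclone 19, 19 were higher and 2 lower, against 24.2% and 17.7% of all genes. In subclone 24, 15 were higher and 3 lower, against 15.2% and 17.1%, and in subclone 28, 4 were higher and 12 lower, against 19.2% and 18.2%.

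Of 27 other checkpoint ligands and modulators, 13 passed the F-test (48.1%, against 61.8% of all genes), 8 of them with a range of at least 1. Cd80, a ligand of CD28 and CTLA-4, was at 7.70 in subclone 18 and between 5.04 and 5.64 in the others. Nt5e, which encodes the ectonucleotidase CD73, spanned 2.43 log2 units with its highest mean in subclone 19 (7.25), and Pvr, a ligand of TIGIT and DNAM-1, spanned 1.97 with its highest in subclone 28 (10.78). Lgals9 (1.21), Lgals3 (1.2) and Tnfsf9 (1.13) followed. Of 8 NK cell receptor ligands, 6 passed (75%), 3 of them with a range of at least 1. Cadm1 spanned 5.41 log2 units, at 4.87 in subclone 18 and 9.46 or more elsewhere, Clec2d 2.04, and Icam2 1.27.

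The epithelial keratin gene Krt8 was at 5.70 in subclone 18 and at 10.32 or more in the other 7, and Krt18 was at 10.82 in subclone 18 and at 11.20 or more in the other 7. Nkx2-1, a defining transcription factor of lung epithelium, lay between 4.25 and 4.43 in all subclones, below the filter level, while Foxa2 lay between 7.33 and 9.36. The 6 endothelial markers measured had overall means below the filter level. Of 7 measured MHC class II genes, only H2-DMa passed the F-test, and Ciita, the class II relative of Nlrc5, was between 6.17 and 6.38 in all subclones (adjusted p = 0.716). No pair of arrays held identical values, and array medians of intensity lay between 40.8 and 45.7.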

How the data were processed

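The authors deposited 1 table of linear intensities for 45101 probe sets on 23 Affymetrix arrays (biotin-labelled cRNA, per the labels' protocols); how these intensities were computed and scaled, and the genome build, is not given in the sources used here. No detection calls were used. Control probe sets (64), probe sets with several symbols (932) and those without one in the annotation (9160) were left out; current symbols came from a RefSeq table (GRCm38.p6) matched on Entrez identifiers, leaving 18193 genes with 1 probe set each, that of the highest mean intensity. A linear model of log2(intensity + 16) (limma 3.58.1, R 4.3.3) had 1 coefficient per subclone, all 23 arrays, and 15 residual degrees of freedom. The F-test, 8 contrasts against the mean of the other 7 subclones and 28 pairwise contrasts were adjusted by Benjamini-Hochberg over all genes within each contrast. Calls needed an adjusted p under 0.05 and, where stated, 1 log2 unit. Genes called expressed in chromosome medians had a mean of at least 5.32, which does not by itself show expression. The fit was tested on simulated data. The number of arrays limits the precision. All members, up to 6 genes per list with a range of at least 1, a set of regulators and constitutive counterparts, and the 3 genes most correlated with each wide-ranging member were named; H2-M3, H2-DMa, Tapbpl and the marker genes (Cd68, Lyz2, Ptprc, Adgre1, Itgam, Tyrobp, Csf1r, Krt8, Krt18, Nkx2-1, Foxa2, Ciita) were added after their values were seen. The members and lists were chosen with earlier results of these data known. Some listed genes are not analysed here.

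The alternatives were pseudocounts of 1 and 64, quantile normalization, median centring, a filter on low values, the mean of all probe sets, a mean-variance trend, the replicate number as a block, and leaving out each array in turn.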

Additional observations from a re-analysis of the deposited data

How the results depend on the processing

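All 10 members passed the F-test under each of the 31 alternatives run. The number that spanned 1 log2 unit or more was 4, and lay between 3 and 5 when each array was left out in turn, being 3 without subclone 3 replicate 1 or subclone 19 replicate 2 (Tap2 then under 1) and 5 without subclone 19 replicate 3 (Cd274 then at 1), at 6 with a pseudocount of 1 and at 3 with a pseudocount of 64 or median centring. The 3 calls against the other 7 subclones became 5 with a pseudocount of 1, both added calls being Nlrc5 in subclones 18 and 23, and 2 with a pseudocount of 64, which left out Nlrc5 in subclone 24 (-0.74). The 21 calls over pairs became 13 with a pseudocount of 64, which shrinks differences of dim probe sets by construction, and lay between 19 and 23 without single arrays. With the filter on low values, 3 of 4 NK cell receptor ligands passed in place of 6 of 8, as 4 of the 8 fell under the filter. Of the 13 differences whose arrays did not overlap, 12 kept their sign and an adjusted p under 0.05 in all 31 alternatives; Tap1 in subclone 24 kept its sign in 31 and the p in 30, the exception being the mean of all probe sets (-0.12). With the pseudocount of 64, Cd274 and Psmb8 in subclone 19 and Tap1 in subclone 24 had differences of 0.34, -0.33 and -0.27. The second Psmb8 probe set, with a mean intensity of 6.29, did not pass the F-test (adjusted p = 0.0626). The second probe sets of Erap1, Tapbp and B2m passed, with ranges of 1.5, 0.83 and 0.36. That of B2m was lowest in subclone 24, as was the one used, but highest in subclone 23 in place of subclone 2. Nlrc5 had its highest mean in subclone 18 in place of subclone 23 under 6 alternatives.

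Arrays with the same replicate number did not deviate together (median r = -0.01 over 77 pairs, against 0.00 over 154 pairs with different numbers), so the numbers do not pair the arrays. With the replicate block, 10 members passed the F-test, 4 of them with a range of at least 1, and there were 3 and 21 calls. Dim probe sets (Cd274, Tap1, Psmb8, Psmb9, Nlrc5 in subclone 24 and Erap1 in subclone 28) are limited by signal over background.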
